A study of Mus musculus with 10 samples.

Results

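Peaks of histone H3 dimethylated at lysine 4 (H3K4me2), a chromatin mark of promoters and enhancers, were described at 8 mouse genes of the prostaglandin and leukotriene pathways. The genes were the prostanoid receptors Ptgdr2, Ptgir, Ptger2 and Ptger4, the prostaglandin D2 synthase Hpgds, the leukotriene enzyme Alox5, and the leukotriene receptors Cysltr1 and Ltb4r1. A peak belonged to one of them when that gene was the nearest protein-coding gene within 100 kb, and a peak lying over several genes counted for each. This rule gave 66 of the 152121 peaks in the 8 H3K4me2 lists. Peaks of different libraries within 500 bp were joined, which turned the 66 peaks into 13 of 30062 regions. Of the 8 genes, 7 had a peak, and Ptgdr2 had none. Positions are those of mm10, and genes come from RefSeq for GRCm38.p6.

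All cells were sorted, with antibodies and the YFP reporter, from mice that carried Gata3-YFP/YFP and had airway inflammation, so the control cells share the allele and the inflammation. Cells labelled naive T cells, T helper-2 (Th2) cells and ILC2s, or group 2 innate lymphoid cells, had 2 libraries each. In each case 1 came from bronchoalveolar lavage and 1 from the mediastinal lymph node, and where 2 values are given the lavage comes first. For CD4+ lymphocytes there was 1 library from spleen and 1 from thymus. The labels give no age, no inducing agent, no gate for the naive T cells and no number of animals per library. The 2 libraries of a cell type differ in site, so limma p-values measure a difference against a spread that holds the site and any technical difference. Spleen and thymus, with 1 library each, add nothing to that spread. Contrasts that include them take it from the naive T, Th2 and ILC2 libraries and assume that spleen and thymus vary alike.

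Prostaglandins and leukotrienes are lipid signals made from arachidonic acid, the first through the cyclooxygenases and terminal synthases such as Hpgds, the second through the lipoxygenase Alox5. They act on receptors that couple to G proteins. In the allergic airway, prostaglandin D2 through Ptgdr2 (also called CRTH2) and cysteinyl leukotrienes through Cysltr1 are known to activate Th2 cells and ILC2s, whereas prostacyclin through Ptgir is known to restrain ILC2s. Prostaglandin E2 acts through Ptger2 and Ptger4, and leukotriene B4, a chemoattractant, through Ltb4r1.

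Of the genes with a listed start in the RefSeq promoter table, 6 had an ILC2 or Th2 peak over the start, and the 250 bases before it are shown because these are the stretches the mark covered. They are in the direction of transcription, from RefSeq for GRCm38.p6, and capitals mark matches to 4 motifs searched on both strands, namely GATA, spelled AGATAA in one form and TGATAA in the other, RUNX (TGTGGT), ETS (GGAAGT) and STAT (TTCNNNGAA). The Hpgds window lies inside the gene's own interval, so 30 bases around its ETS match are shown, from 59 to 30 bases before the start. No other gene interval overlapped the windows.
Ptgir, chr7:16906240-16906489, plus strand: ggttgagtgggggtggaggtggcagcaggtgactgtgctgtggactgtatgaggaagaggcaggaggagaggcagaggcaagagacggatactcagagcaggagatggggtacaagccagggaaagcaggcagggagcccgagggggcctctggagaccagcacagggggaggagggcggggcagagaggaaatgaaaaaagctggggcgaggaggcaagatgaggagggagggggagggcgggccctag
Ptger2, chr14:44987861-44988110, plus strand: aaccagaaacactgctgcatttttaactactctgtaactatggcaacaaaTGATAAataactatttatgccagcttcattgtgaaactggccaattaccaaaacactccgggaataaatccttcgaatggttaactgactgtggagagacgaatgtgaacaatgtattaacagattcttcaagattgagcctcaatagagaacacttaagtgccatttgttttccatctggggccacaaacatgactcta
Ptger4, chr15:5244188-5244437, minus strand: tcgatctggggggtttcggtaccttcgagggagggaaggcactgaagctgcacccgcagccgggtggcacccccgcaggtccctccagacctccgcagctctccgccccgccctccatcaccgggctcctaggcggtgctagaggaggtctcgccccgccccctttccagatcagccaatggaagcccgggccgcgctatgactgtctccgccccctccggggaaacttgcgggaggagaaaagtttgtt
Hpgds, chr6, minus strand: cttttaggtggaGGAAGTggcctctggctg
Alox5, chr6:116461179-116461428, minus strand: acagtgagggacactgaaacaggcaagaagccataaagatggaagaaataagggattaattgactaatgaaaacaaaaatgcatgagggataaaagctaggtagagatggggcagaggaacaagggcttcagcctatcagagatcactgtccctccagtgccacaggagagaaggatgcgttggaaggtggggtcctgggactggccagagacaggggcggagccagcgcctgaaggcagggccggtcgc
Ltb4r1, chr14:55765712-55765961, plus strand: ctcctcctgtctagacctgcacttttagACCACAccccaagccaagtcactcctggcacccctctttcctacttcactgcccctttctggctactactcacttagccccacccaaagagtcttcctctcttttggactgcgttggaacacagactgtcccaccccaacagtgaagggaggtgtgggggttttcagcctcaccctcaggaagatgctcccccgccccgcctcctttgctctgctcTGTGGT

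The stretches differed in how widely they were marked and in their base composition. Peaks covered the Ptger2, Ptger4 and Hpgds stretches in all 8 libraries, that of Ptgir in 6, that of Ltb4r1 in 5 and that of Alox5 in 2, the ILC2 libraries. The Ptger4 stretch was the richest in G and C, at 66.8% with 19 CG dinucleotides, and that of Ptger2 the poorest, at 38.0% with 3, against medians of 55.6% and 10 over 21263 protein-coding promoters. A GATA match began 200 bases before the Ptger2 start. RUNX matches began 222 and 6 bases before the Ltb4r1 start and 250 bases before that of Hpgds, whose ETS match began 47 bases before it. No match to these 4 motifs was found in the stretches of Ptgir, Ptger4 and Alox5, and no matches overlapped. Of all promoters, 14.6% held the GATA, 12.4% the RUNX, 20.4% the ETS and 6.58% the STAT motif, so a match in 1 stretch is common.

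The libraries held between 11870820 and 24945548 tags and between 14723 and 21985 peaks. The value of a peak is the authors' tag count scaled to 10000000 tags, and the lists share a minimum near 40 of these normalized tags, so a missing peak means that the criteria were not met and not that the mark was absent. The median over the 11038 regions called in every library ran from 155 in Th2 lavage to 300.5 in the thymus, so tests were run on log2 values centred on it. The naive T libraries stood apart from each other, with a Jaccard index of shared peak bases of 0.614, whereas the lavage one reached 0.741 with Th2 lavage and the node one 0.846 with spleen. All 9 of the fixed T cell markers (among them Cd3e, Cd4 and Cd6) had a region in every T cell library, with summed values of 12456 to 21721. In ILC2s 7 did, with summed values of 1299 and 1512 and with no peak assigned to Cd4, Cd6 or Themis. The 8 fixed ILC2 markers summed to 24175 and 25412 in ILC2s and to between 3453 and 7251 elsewhere. Of 9 macrophage and neutrophil markers none had a region. Of 6 B cell markers, 4 had a region, with assigned peaks that summed to 459.8 and 995 in ILC2s and to between 499 and 1706 elsewhere. Of their 10 regions, 3, at Cd79b and Pax5, had a peak in both ILC2 libraries and in neither naive T library, and the defining marker Ms4a1 had no peak in any library.

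**Figure D1:**
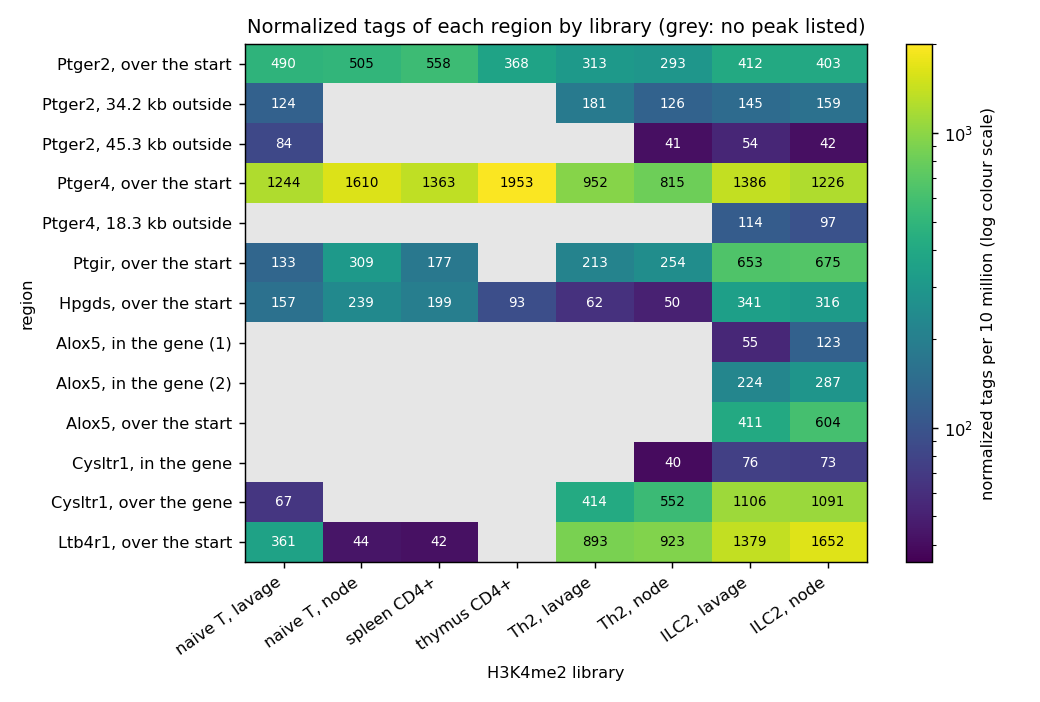
Normalized tags (log colour scale, with the value printed) of the 13 regions, by row, in the 8 H3K4me2 libraries, by column; grey cells have no listed peak. The ILC2 columns are filled in all 13 rows, the thymus column in 3.

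ILC2s had a peak in all 13 regions in both libraries, more than any other cell type. In bulk libraries, fewer cells with the mark and less of the mark per cell cannot be told apart. The naive T libraries had 8 in the lavage and 5 in the node, the Th2 libraries 7 and 9, spleen 5 and thymus 3. The regions held 0.147% and 0.15% of all peak tags in ILC2s, 0.106% in each Th2 library, 0.0712% and 0.0504% in naive T cells, 0.0529% in spleen and 0.0453% in thymus. The share of tags was highest in ILC2s and next highest in Th2 cells. By region, 3 were called in all 8 libraries (Ptger2, Ptger4 and Hpgds, each over the gene start), 2 in 7, 2 in 5, 1 in 4, 1 in 3 and 4 in the ILC2 libraries alone. Those 4 exist as regions only through the ILC2 lists, so part of the full ILC2 count was fixed by how regions were made. Of all 30062 regions, 11038 were called in all 8 libraries.

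Both ILC2 libraries and neither naive T library had a peak in 5 of 13 regions (38.5%), against 10.7% of all regions. The same 5 were the regions called in ILC2s and in none of naive T, spleen and thymus, where the background was 9.82%. They were the 3 regions of Alox5, 1 upstream of Ptger4 and the shorter region in Cysltr1. All but the Cysltr1 region exist only through the ILC2 lists, and the Alox5 regions lie at 1 gene. The genes were also chosen with earlier results of these data known, so the higher share is no test of the pathways. The reverse, a peak in the control libraries and in neither ILC2 library, was found in 0 of 13 regions, against 2.68% for naive T and 1.54% for naive T, spleen and thymus. For Th2 the counts were 0 of 13 throughout, against 1.01% called in Th2 only and 5.28% in naive T only, and against 0.955% and 3.95% when spleen and thymus were added. Without the lavage naive T library the ILC2 count was 8 and the Th2 count 2, where 4086 and 1010 of 29862 regions had these patterns. The regions added were the taller one in Cysltr1 for both, the nearer distal region of Ptger2 for both, and the farther one for ILC2s. With equal numbers of peaks taken from each library the ILC2 count against naive T was 3, where 1523 of 21364 regions had this pattern.

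**Figure D2:**
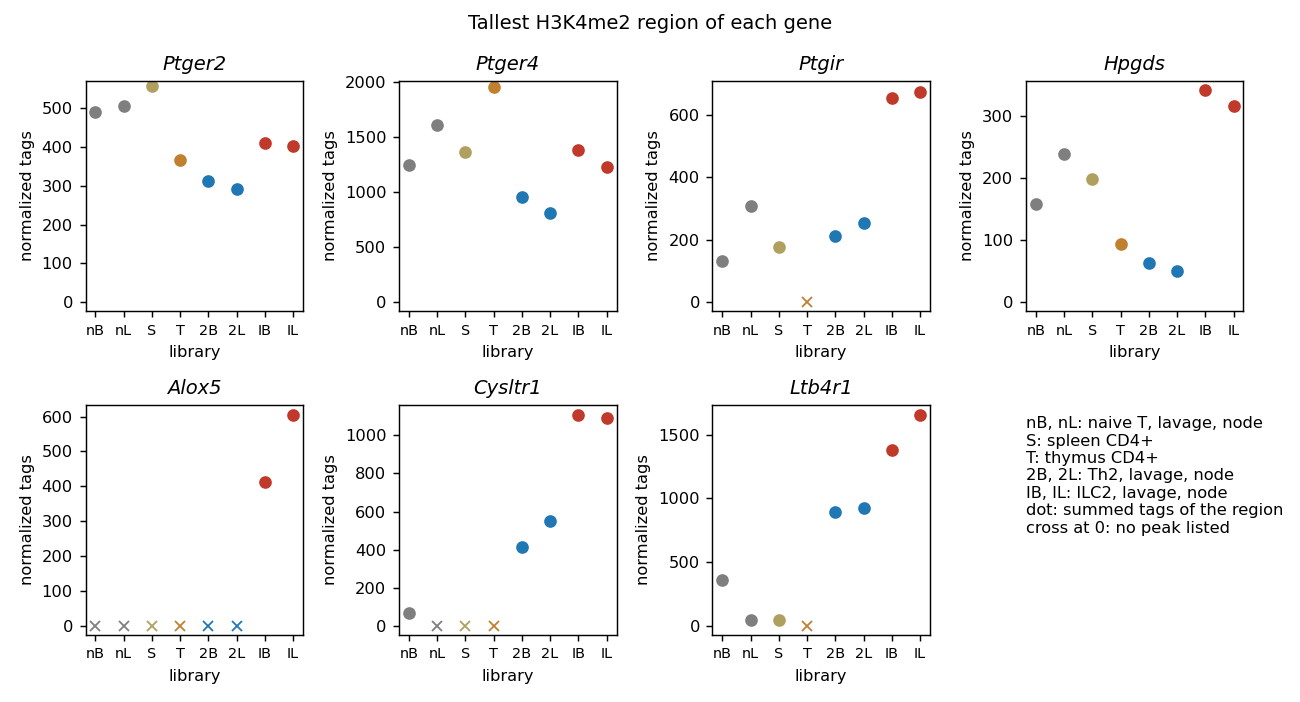
Summed normalized tags of the tallest region of each gene in each library, with linear axes that differ between panels; nB and nL are naive T, 2B and 2L Th2, IB and IL ILC2 of lavage and node, S is spleen, T is thymus, and a cross marks no listed peak. Alox5 has points in ILC2s alone, and the Ptger2 and Ptger4 panels show every library above 0.

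Among the prostanoid receptors, Ptgir had its highest normalized tags in ILC2s. Its single region (chr7:16905088-16913978) held peaks that covered the whole gene in ILC2s alone. It had 133 and 309 normalized tags in naive T cells, 213 and 254 in Th2 cells, 653 and 675 in ILC2s, 177 in spleen and no peak in thymus. Both ILC2 libraries were thus above every other library, and Th2 and naive T values overlapped. The peak was also longer in ILC2s, at 8571 and 8890 bp, than in Th2 (3913 and 4425 bp), naive T (2559 and 3983 bp) and spleen (3362 bp). Per kb the ILC2 values were 76.2 and 75.9 normalized tags, those of Th2 54.5 and 57.5, and those of naive T 51.9 and 77.6.

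Because thymus lacked the Ptgir peak, the gene entered a limma fit over the 11644 regions called in all 6 airway libraries. In it the ILC2 mean (664 ± 15.6, SD, n = 2) was above the naive T mean (221 ± 125, SD, n = 2) by 1.89 on the centred log2 scale (SE 0.27, limma adjusted p = 0.025), where 4.23% of regions passed. The Th2 mean (234 ± 29.1, SD, n = 2) differed from naive T by 0.82 (limma adjusted p = 0.224, 0.137% of regions passed) and from ILC2s by 1.08 (limma adjusted p = 0.104, 3.38% passed). The ILC2 difference from naive T did not pass per kb, at 0.49 (limma adjusted p = 0.0704), nor without centring, at 1.71 (limma adjusted p = 0.0501). It was also lost without either Th2 or either ILC2 library, with log2 values of 1.89 to 1.90 (limma adjusted p from 0.0802 to 0.212).

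The receptors of prostaglandin E2 were marked in every library. Ptger4, whose start lies in a region of 12683 bp (chr15:5233745-5246428), had the most tags per kb of all 13 regions in every library (77.5 to 207), and its normalized tags were 1244 and 1610 normalized tags in naive T cells, 952 and 815 in Th2 cells, 1386 and 1226 in ILC2s, 1363 in spleen and 1953 in thymus. Its lowest values were those of Th2 and the highest that of thymus. For Ptger2 (chr14:44985937-44993240), the values were 489.8 and 505 in naive T cells, 313 and 293 in Th2 cells, 412 and 403 in ILC2s, 558 in spleen and 368 in thymus. Here too Th2 cells were lowest, and ILC2s lay between Th2 and naive T.

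Both start regions entered the limma fit over the 11038 regions called in all 8 libraries, in which 4.44% of regions passed for ILC2 against naive T, 0.163% for Th2 against naive T, 10% and 13.5% for ILC2 and Th2 against the mean of naive T, spleen and thymus, and 4.16% for ILC2 against Th2. After centring, neither Ptger2 nor Ptger4 passed in any of the 5 contrasts, with differences from -0.09 to 0.14 on the log2 scale (SE 0.15 to 0.19). Without centring, which shifted the median of all regions by -0.72 for Th2 against the mean of naive T, spleen and thymus, both were lower there, Ptger2 by -0.63 (limma adjusted p = 0.0277) and Ptger4 by -0.82 (limma adjusted p = 0.0159). The lower normalized tags of Th2 at these genes were therefore close to the shift of all regions.

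Away from the starts, these receptors differed by cell type. A region 18286 bp upstream of Ptger4 (chr15:5262473-5264488) had 114 and 97.2 normalized tags in ILC2s and no peak elsewhere. The nearer distal region of Ptger2, 34226 bp past the gene (chr14:45038046-45041929), had 124 in naive T cells of the lavage, 181 and 126 in Th2 cells, and 145 and 159 in ILC2s. It was missing in naive T cells of the node, spleen and thymus, so the lavage naive T library went with the airway effector cells here. The farther one, 45290 bp past the gene, was listed in 4 libraries. It had 84.4 in lavage naive T cells, 41.3 in node Th2 cells, and 54.1 and 41.6 in ILC2s, so the lavage naive T value was the highest. Nearest gene is position only, and which gene these distal regions act on was not tested.

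**Figure D3:**
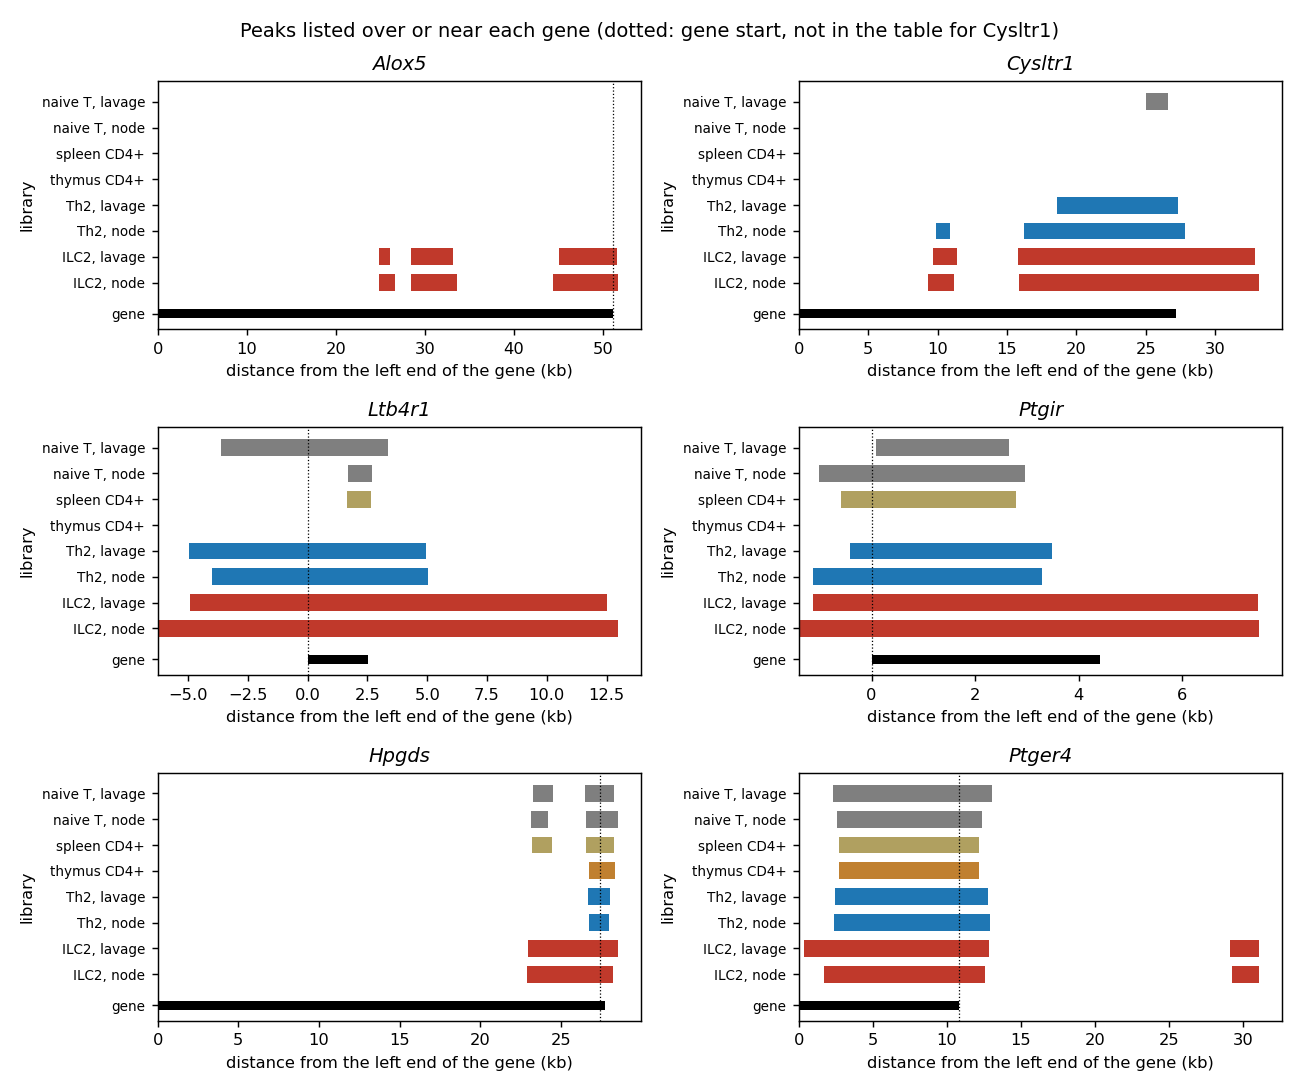
Extent of each listed peak (bars, coloured by cell type) of 6 genes in the 8 libraries, in kb from the left end of the gene (black bar); peaks assigned only to a neighbouring gene are not drawn. The ILC2 bars are the longest at Ptgir (8571 and 8890 bp), Cysltr1 (17111 and 17336 bp), Ltb4r1 (17441 and 19263 bp) and Hpgds (5542 and 5350 bp).

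Ptgdr2, the prostaglandin D2 receptor used to sort human ILC2s and Th2 cells, had no assigned peak in any of the 8 libraries. The nearest region (chr19:10946842-10952726) lay 4331 bp beyond the gene and 9682 bp from its start, was nearest to Ccdc86, and was listed in every library with 169 to 382 normalized tags. ILC2s had 212 and 250.1 there, Th2 cells 269 and 169, and naive T cells 293 and 382, so the type 2 cells were not the highest.

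Hpgds, which makes prostaglandin D2 from prostaglandin H2, was higher in ILC2s and lowest in Th2 cells. Its region over the start (chr6:65140182-65145827) had 157 and 239 normalized tags in naive T cells, 62.3 and 50.5 in Th2 cells, 341 and 316 in ILC2s, 199 in spleen and 93.0 in thymus. The 3 airway cell types did not overlap. The shape differed as well. Naive T cells and spleen had a peak over the start (93.2, 186 and 137) and a separate one inside the gene (63.9, 53.2 and 61.5), Th2 cells and thymus had only the first, and in ILC2s 1 stitched peak of 5542 and 5350 bp spanned both.

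In the fit over all 8 libraries, the ILC2 mean at Hpgds (329 ± 17.6, SD, n = 2) was above the naive T mean (198 ± 57.8, SD, n = 2) by 0.96 on the centred log2 scale (SE 0.18, limma adjusted p = 0.0457). Against the mean of naive T, spleen and thymus it was higher by 1.41 (SE 0.16, limma adjusted p = 0.00726), and against Th2 (56.4 ± 8.3, SD, n = 2) by 2.12 (SE 0.18, limma adjusted p = 0.0088). Without either ILC2 library both of these calls were lost, and without either Th2 library the one against Th2. Th2 cells differed from naive T cells by -1.17 (SE 0.18, limma adjusted p = 0.0781), which did not pass. They were lower than the mean of naive T, spleen and thymus by -0.71 (SE 0.16, limma adjusted p = 0.0423), a call lost without either Th2 or either ILC2 library. Per kb of peak none of these passed, at 0.15 for ILC2 against naive T (limma adjusted p = 0.623), 0.34 (limma adjusted p = 0.0772) and 0.13 (limma adjusted p = 0.373) for ILC2 and Th2 against the 4 control libraries, the second with the sign turned, and 0.21 for ILC2 against Th2 (limma adjusted p = 0.482). The call against naive T was also lost with a replicate block for the site (limma adjusted p = 0.0665) and in the fit over the 6 airway libraries (limma adjusted p = 0.0527). Without any 1 of the airway libraries it was lost too, with log2 values of 0.87 to 1.04.

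**Figure D4:**
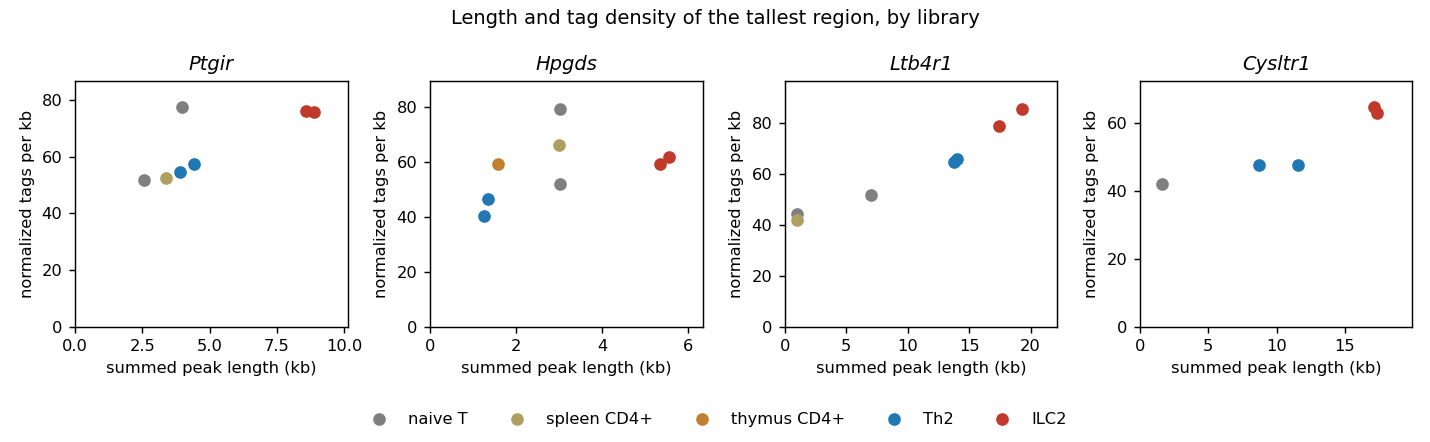
Summed peak length (kb) against normalized tags per kb of the tallest region of 4 genes, 1 point per library that listed it, coloured by cell type. The ILC2 points lie farthest right in all 4 panels; at Hpgds their density (61.5 and 59.1) lies within the range of the naive T points.

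Alox5, the enzyme that begins leukotriene synthesis, was marked in ILC2s and in no other library. The region over its start (chr6:116454489-116461809) had 411 and 604 normalized tags in ILC2s, from 1025 and 1378 counted tags. Inside the gene, a second region (chr6:116438508-116443658) had 224 and 287, and the third (chr6:116434940-116436746) 54.9 and 123. All 3 were higher in the node library than in the lavage library. No T cell library listed a peak at Alox5, where the lists begin near 40. With listed values alone, no limma test could be made.

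Mast cells and eosinophils are known to make cysteinyl leukotrienes, so their 10 fixed markers were read beside Alox5. Of these, 3 had a region, with summed values of 1028 and 1412 in ILC2s and 260 to 772 elsewhere. Cpa3, a mast cell protease, had 327.5 and 515.5 in ILC2s, 52.7 and 234 in naive T cells, 175 in spleen and 110.3 in thymus, and was not listed in Th2 cells. Ccr3, a chemokine receptor of eosinophils, had 441 in the lavage naive T library, 423 and 568 in Th2 cells and 567 and 749 in ILC2s, and was not listed in the other 3 libraries. Hdc, which makes histamine, had 278 and 307 in naive T cells, 234 and 168 in Th2 cells, 134 and 148 in ILC2s, 247 in spleen and 149.7 in thymus, and so was lowest in ILC2s. The defining markers Fcer1a, Ms4a2, Mcpt4, Tpsb2, Siglecf, Epx and Prg2 had no peak in any library, and the part of such cells in the Alox5 values was not tested.

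The leukotriene receptors were listed in both Th2 and both ILC2 libraries, with higher normalized tags in ILC2s before centring. Without centring, the median of all regions was itself 0.42 higher on the log2 scale in ILC2s than in Th2 cells. Cysltr1, the receptor of cysteinyl leukotrienes, had a region over the right part of the gene and beyond it (chrX:106592272-106609706), with 415 and 552 normalized tags in Th2 cells, 1106 and 1091 in ILC2s, 66.9 in naive T cells of the lavage and no peak in the node, spleen or thymus controls. The ILC2 values did not overlap those of Th2, and both were above the only control library that listed a peak. Its length was 1597 bp in that naive T library, 8716 and 11596 bp in Th2 cells and 17111 and 17336 bp in ILC2s. A second, shorter region inside the gene (chrX:106585843-106587940) had 75.8 and 73.1 in ILC2s and 39.6 in Th2 cells of the node, the last from 47 counted tags, with an exact Poisson interval of 29.1 to 52.7 that covers counting error only. All of these peaks also overlapped the predicted gene Gm5127 and counted for both genes.

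Ltb4r1, the high-affinity receptor of leukotriene B4, lay in a region with its neighbours Ltb4r2 and Adcy4 (chr14:55759686-55778949), and its long peaks overlap all 3 genes and cannot be split between them. It had 361 normalized tags in naive T cells of the lavage and 44.3 in those of the node, 893 and 923 in Th2 cells, 1379 and 1652 in ILC2s, 42 in spleen and no peak in thymus. The Th2 sums include separate peaks of 194 and 267 that overlap Adcy4 and not Ltb4r1, and the peaks that reach Ltb4r1 had 699 and 656. ILC2s were highest, Th2 cells next, and the naive T library of the lavage lay well above that of the node. In the node and in spleen the peak was 1000 bp long and did not reach the gene start.

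In the limma fit over the 6 airway libraries, the Ltb4r1 region differed by 3.76 on the log2 scale between ILC2 and naive T (SE 1.06, limma adjusted p = 0.135) and by 3.46 between Th2 and naive T (SE 1.06, limma adjusted p = 0.21), and neither passed. The 2 naive T libraries were far apart here. The differences were 5.49 and 5.20 without the lavage naive T library, and 2.01 and 1.72 without the node one (limma adjusted p of 0.0025, 0.00299, 0.0084 and 0.056). Each of these fits leaves 1 naive T library, which is assumed to vary like the other groups, so the size of the difference depends on which library is used. Without centring, the ILC2 difference was 3.58 and passed (limma adjusted p = 0.0462). Per kb of peak, the differences from naive T were smaller, 1.01 for ILC2 and 0.95 for Th2. Neither passed (limma adjusted p = 0.0848 and 0.331). In the centred fit on summed tags, ILC2s and Th2 cells differed by 0.30 (SE 1.06, limma adjusted p = 0.888), which did not pass.

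The taller Cysltr1 region, with no peak in naive T cells of the node, could be fitted on listed values only without that library. With the lavage naive T library alone, and the same assumption on its spread, the ILC2 difference from it was 3.98 (limma adjusted p = 0.00723) and the Th2 difference 3.22 (limma adjusted p = 0.0392). In that fit ILC2s and Th2 cells differed by 0.76 (limma adjusted p = 0.0508), which did not pass.

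Beyond the 8 genes, a list of 38 other genes of the 2 pathways had 60 regions at 27 genes. The Ltb4r2 region among them is the Ltb4r1 region described above. Both ILC2 libraries and neither naive T library had a peak in 7 of the 60, against 2 with the reverse, beside 10.7% and 2.68% of all regions. For Th2 the counts were 0 and 6, beside 1.01% and 5.28% of all regions. The list's ILC2 share was thus close to the 10.7% of all regions. Of the 7, 4 belonged to Cysltr2, the other receptor of cysteinyl leukotrienes, and 1 each to the cyclooxygenase Ptgs1, the prostaglandin E synthase Ptges and the chemerin and resolvin receptor Cmklr1, with values between 39.4 and 107 normalized tags. The 2 missing in ILC2s were at the thromboxane receptor Tbxa2r and the prostaglandin exporter Abcc4. The Tbxa2r region, which also overlaps Cactin, had 53.1 and 449.3 in naive T cells, 341 in spleen and 713 in thymus, and neither Th2 cells nor ILC2s had a peak there.

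Of this list, 17 regions at 14 genes were called in all 8 libraries and entered the limma fit. A Cysltr2 region (chr14:73085292-73089607) was higher in ILC2s, with 384 and 407 normalized tags, than in naive T cells, with 151 and 158, by 1.55 on the log2 scale (SE 0.18, limma adjusted p = 0.0125). Th2 cells had 122 and 113 there and were below ILC2s by 1.33 (limma adjusted p = 0.0238). That call against Th2 was lost without either Th2 or either ILC2 library. Over the 6 airway libraries, the call against naive T (1.54, limma adjusted p = 0.015) was lost without either ILC2 library. Whether it held in the fit over all 8 libraries with 1 left out is not given here. This Cysltr2 region was the only one of the 17 that passed against naive T in ILC2s, and the median over the 17 was 0.03. A second Cysltr2 region (chr14:73043040-73050640) had 1060 and 1050 in ILC2s and 208.5 to 469.8 elsewhere, and passed against the mean of naive T, spleen and thymus (2.23, limma adjusted p = 0.0352).

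For Th2 against naive T, 1 of the 17 regions passed, with a lower value. At Abcc4 (chr14:118704437-118707456), Th2 cells had 37.4 and 37.1 normalized tags, naive T cells 127 and 206, and ILC2s 129 and 139.7, a difference from naive T of -1.50 (limma adjusted p = 0.0432). The call was lost in the fit over the 6 airway libraries (limma adjusted p = 0.0538), and no region at all passed in that contrast per kb, with a replicate block, or without either Th2 or either ILC2 library. Against the mean of naive T, spleen and thymus, 1 of the 17 was higher and 3 were lower, beside 824 higher and 662 lower of all 11038 regions. In 1 region each, Abcc4, Alox5ap and Mgst2 were lower in Th2 cells by -1.52, -1.06 and -1.25. Alox5ap is the protein that presents arachidonic acid to Alox5, and Mgst2 is a glutathione transferase that can form leukotriene C4. The leukotriene C4 exporter Abcc1 was higher by 0.90 (limma adjusted p of all these from 0.0126 to 0.0483). None of these calls was kept when either Th2 or either ILC2 library was left out. The Alox5ap region tested had 54.9 and 49.7 in Th2 cells, 142 and 169.9 in ILC2s and 71.5 to 336 in the other libraries. The median over the 17 regions was -0.24 in that contrast. The Mgst2 region (chr3:51651791-51655888) was lower in ILC2s too, by -0.78 against the same controls (SE 0.16, limma adjusted p = 0.0404). It had 184 and 242.5 in naive T cells, 66.7 and 59.8 in Th2 cells, 100.2 and 138 in ILC2s, 212 in spleen and 349.9 in thymus. Another Mgst2 region (chr3:51635423-51638059) did not pass against these controls. Its differences had the other sign, 0.30 in Th2 cells and 0.42 in ILC2s (limma adjusted p = 0.154 and 0.116).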

How the data were processed

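H3K4me2 was profiled by chromatin immunoprecipitation in 8 libraries, prepared with a Nextera protocol per the labels' protocols. The authors used Bowtie and HOMER with the mm10 genome, per the submitters' processing notes, with versions not given in the sources used here. HOMER findPeaks was run on 1 library at a time, per the file headers, at a peak size of 1000 bp, a minimum distance of 2500 bp, a false discovery rate of 0.001 and a 4-fold excess over an IgG library, then stitched to variable length. The 2 samples titled IgG carry the H3K4me2 antibody in their labels. The deposited signal is a normalized tag count per 10000000 tags, and the deposited lists also give each peak's fold over IgG, a ratio that ran from 6.09 to 94.7 at these genes and was not tested. Region sizes are the authors' as deposited. Total tags per library were 11870820 to 24945548, and member peaks held 47 to 3962 counted tags.

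Peaks within 500 bp were merged. Genes were the 21900 protein-coding intervals of the RefSeq table, and a peak over several genes counted for each (13 member peaks). Summed log2 values, centred on the library's median, were fitted with limma 3.58.1 in R 4.3.3, with Benjamini-Hochberg adjustment over all regions and a threshold of 0.05. The fit was tested on simulated data. The fit over 6 libraries and the contrast of ILC2 with Th2 were added after seeing the data. Same-numbered libraries share a site, and the correlations of their deviations were 0.081, -0.034 and 0.253, which do not exclude a shared effect of site. The main fit took no pairing, and a replicate block was run as an alternative. The members, gene lists and tests were chosen with earlier results of these data known. Values are given for the tallest region of each gene, each region over it and each called in 1 cell type only; genes of the wider list are named where called in 1 group only or past the threshold. The promoter table has no start for Cysltr1. The files of the IgG samples were not used here.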

Additional observations from a re-analysis of the deposited data

Results flagged for a closer look

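At the Hpgds region, the difference of ILC2s from naive T cells (0.96 on the log2 scale) and that of Th2 cells from naive T cells (-1.17) had opposite signs, and the 2 differences were 2.12 apart (SE 0.18, limma adjusted p = 0.0088). The call was lost without either Th2 or either ILC2 library. Both ILC2 libraries (341 and 316 normalized tags) were above both naive T libraries (157 and 239), and both Th2 libraries (62.3 and 50.5) were below them. The peak length moved with the value, from 1341 and 1253 bp in Th2 cells to 5542 and 5350 bp in ILC2s, and per kb the difference was 0.21 (limma adjusted p = 0.482). The part of peak length in the result was not tested further.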

How the results depend on the processing

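The 5 regions with a peak in both ILC2 libraries and in neither naive T library were counted again under other settings. The count was 5 or 4 when peaks were merged at 0 or 1000 bp, or those under 60 tags were dropped. It was also 5 or 4 with genes within 10 kb or by nearest start (which leaves out Cysltr1), or with 1 gene per peak. With equal numbers of peaks it fell to 3. Against all controls these counts were the same. Leaving out 1 library gave 5 to 8 for ILC2s and 0 to 2 for Th2 cells. In the limma fits, the 1 region called for ILC2 against naive T (Hpgds) became 0 without centring, per kb, under robust trended variance, with peaks of at least 60 tags and in each fit without 1 library, where the count was 0. At 60 tags Hpgds was not among the regions tested, since a Th2 peak fell short, so these zeros are over 2 regions. Against the controls it became 0 per kb and at 60 tags, as did the 1 called for Th2 against them and for ILC2 against Th2, and these ran from 0 to 1 without 1 library. Without centring, Th2 had 1 against naive T and 3 against the controls, and without 1 library 0 to 1 against naive T. With missing peaks at the lowest listed value the counts were 7, 0, 9, 2 and 4. Hpgds, listed in every library, was among the 7, the 9 and the 4. Ptgir, listed in every naive T and ILC2 library, was among the 7. The other calls rest in part on filled values, so they largely restate which libraries listed a peak. A replicate block made Hpgds 0 of 3 for ILC2 against naive T (adjusted p = 0.0665) and kept it against Th2 (adjusted p = 0.0207); it could not be fitted with spleen and thymus, and it changed no other call at these genes. Under the block, 416, 0 and 297 regions in all passed for ILC2 and Th2 against naive T and for ILC2 against Th2. Signs turned where differences were near 0. For Ptger2 they were -0.198 and -0.0162 (ILC2) and -0.625 and -0.116 (Th2) against the controls without centring and per kb, and -0.0076 for ILC2 against Th2 in 6 libraries. Without 1 library they ran from -0.309 to 0.121 (ILC2) and from -0.311 to 0.121 (Th2) against naive T, and from -0.0874 to 0.0631 for ILC2 against Th2. For Ptger4 in ILC2s they were -0.118 and -0.0612 against naive T and -0.255 and -0.116 against the controls, without centring and per kb. Without 1 library they ran from -0.0443 to 0.197 (ILC2) and from -0.188 to 0.0923 (Th2) against naive T, from -0.0695 to 0.172 and from -0.213 to 0.0661 against the controls, and from -0.0151 to 0.267 for ILC2 against Th2. Hpgds in Th2 against the controls was 0.13 per kb. The cause of these turns was not tested.

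Over all regions, in the fits that hold spleen and thymus or the replicate block, counts past the threshold ran from 15 to 3759 around 490 for ILC2 against naive T, from 0 to 2428 around 18 for Th2 against naive T, from 43 to 5969 around 1107 and from 0 to 6847 around 1486 against the controls, and from 0 to 1986 around 459 for ILC2 against Th2. In the fits over the 6 airway libraries they reached 0 for ILC2 against naive T without either ILC2 library and 2755 for Th2 against naive T without the lavage naive T library. At an unadjusted p under 0.05 the numbers were 2065, 2209, 3111, 4398 and 2488. The shallow Th2 libraries and the tag minimum limit what a missing peak can show.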
